A study of Rattus norvegicus with 9 samples.

Results

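The messenger RNA of 9 cell death effector genes was followed in rat liver: Nlrp3, Casp1, Casp4 and Gsdmd of pyroptosis, Ripk1, Ripk3 and Mlkl of necroptosis, and Casp8 and Fas of receptor-driven apoptosis. They were taken from the deposited tables by gene symbol, each matched 1 of the 32883 genes listed, and all 9 passed the filter on low counts that left 14089 genes for testing. Bulk liver RNA came from 9 male Sprague-Dawley rats that were 8 to 11 weeks old when obtained, 3 in each group. The normal livers are labelled as liver tissue of normal rats, for which no ligation or LPS is named. The rats of the other groups had acute-on-chronic liver failure (ACLF), made by ligation of the common bile duct for 21 days and then lipopolysaccharide (LPS) at 0.25 mg/kg into the peritoneum. Both ACLF groups were joined under isoflurane and heparin to an extracorporeal blood circuit 1 h after LPS, for 2 h. Their livers were taken 24 h after LPS. According to the paper, rats examined at that time were picked at random among survivors, and far more rats died in the empty group. Differences between the ACLF groups therefore compare survivors only. In the empty group the columns of the circuit held no cells and no adsorbent. In the UTOpiA group they held cellulose acetate beads that adsorb granulocytes and monocytes, and alginate capsules of hepatocyte-like organoids grown from human iPSCs. The empty group therefore carried ligation, LPS and the circuit together, and these cannot be told apart in its comparison with normal livers.

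Pyroptosis is a lytic death in which an inflammasome, such as the one built on the sensor NLRP3, activates caspase-1, and caspase-1 or the LPS-sensing caspase-4 then cuts gasdermin D, whose fragment opens pores in the plasma membrane. Necroptosis runs from RIPK1 to RIPK3 to MLKL, which also ruptures the membrane, and caspase-8 holds it back by cutting the RIP kinases. Fas, a death receptor that hepatocytes carry, recruits caspase-8 through the adaptor FADD and starts apoptosis. All of these proteins are switched on by assembly, cleavage or phosphorylation, which messenger RNA does not report.

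Between 14241172 and 17321677 reads were counted per library. Levels in a liver are given as reads scaled to a common library size by edgeR's CPM with TMM normalisation (normalised CPM), which were used to compare groups. The deposited TPM, scaled by gene length, were used to set different genes side by side, for sums over cell type markers and, in limma, as an alternative scale for the comparisons. The choice of scale mattered, because TMM places the median of all genes tested at a log2 difference of 0.04 between the empty group and normal livers, whereas log2(TPM + 1) places it at 0.44. A gene was called where edgeR's quasi-likelihood test, adjusted over all 14089 genes, gave an adjusted p under 0.05 and the fold change exceeded 2.

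The positions below are those of the deposited table, for which the submitters' processing notes name the build rn6. Casp1 lay on chromosome 8 from 2604962 to 2614631 and Casp4 from 2635851 to 2651652 on the same strand, followed by Casp12 from 2659865 to 2686160. Nlrp3 lay on chromosome 10 (45893018 to 45918254), Gsdmd on 7 (116889572 to 116894134), Ripk1 on 17 (31537591 to 31569904), Ripk3 on 15 (34470796 to 34479741), Mlkl on 19 (43506976 to 43528851), Casp8 on 9 (65614142 to 65662106) and Fas on 1 (252589785 to 252624790). Fas overlapped a listed U6 gene on its own strand, and the other 8 genes overlapped no listed gene.

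In livers of the empty group, 3 of the 9 genes rose against normal livers and 0 fell. The 3 were Nlrp3, Casp1 and Ripk3, the sensor and the protease of the inflammasome and the kinase that activates MLKL. Over all genes tested, 20.7% were called higher and 11.1% lower, so 3 of 9 was not far from what the whole table gave. Their log2 fold changes had a median of 0.51, against 0.04 over all genes. All 3 livers of the empty group lay above all 3 normal livers for 6 of the 9 genes (32.4% of all genes tested) and below them for 0 (28.8% of all genes). On TPM they lay above for 7, with Gsdmd added, as they did for 7530 of all 14089 genes tested. The executioners at the end of each lytic pathway, Gsdmd and Mlkl, were not called in either direction.

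Nlrp3 stood at 3.94, 2.18 and 3.20 normalised CPM in the 3 normal livers, at 10.7, 16.8 and 9.47 in the empty group and at 7.74, 9.85 and 7.82 in the UTOpiA group. Every ACLF liver lay above every normal liver, and the second liver of the empty group was the highest of all. Against normal livers, the empty group had a log2 fold change of 1.99 (SE 0.29, adjusted p = 0.000686 by edgeR's quasi-likelihood test), a 3.97-fold difference. That of the UTOpiA group against normal was 1.45 (SE 0.29, adjusted p = 0.00442 by the same test). These levels rested on 27 to 45 reads per normal library and 104 to 314 per ACLF library.

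Casp1 stood at 4.11, 4.69 and 4.43 normalised CPM in normal livers, at 18.7, 9.87 and 23.5 in the empty group and at 18.0, 19.5 and 8.12 in the UTOpiA group. Normal livers were close to each other, whereas the second liver of the empty group and the third of the UTOpiA group held less than the other 4 ACLF livers did. Its log2 fold change was 1.98 (SE 0.39, adjusted p = 0.00314, edgeR) in the empty group and 1.79 (SE 0.39, adjusted p = 0.00677, edgeR) in the UTOpiA group. Both rises stayed called with any single library left out.

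Ripk3 stood at 5.16, 5.58 and 4.59 normalised CPM in normal livers, at 10.5, 10.2 and 12.6 in the empty group and at 8.72, 8.38 and 4.59 in the UTOpiA group. The 3 livers of the empty group were tightly grouped above all 6 others, and the third UTOpiA liver was level with the lowest normal liver. This rise had a log2 fold change of 1.12 (SE 0.25, adjusted p = 0.00560, edgeR) for the empty group against normal. For the UTOpiA group against normal it was 0.50 (SE 0.25, adjusted p = 0.142, edgeR), and without the third UTOpiA liver it was 0.74 (adjusted p = 0.0172, edgeR), still under a 2-fold change.

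**Figure D1:**
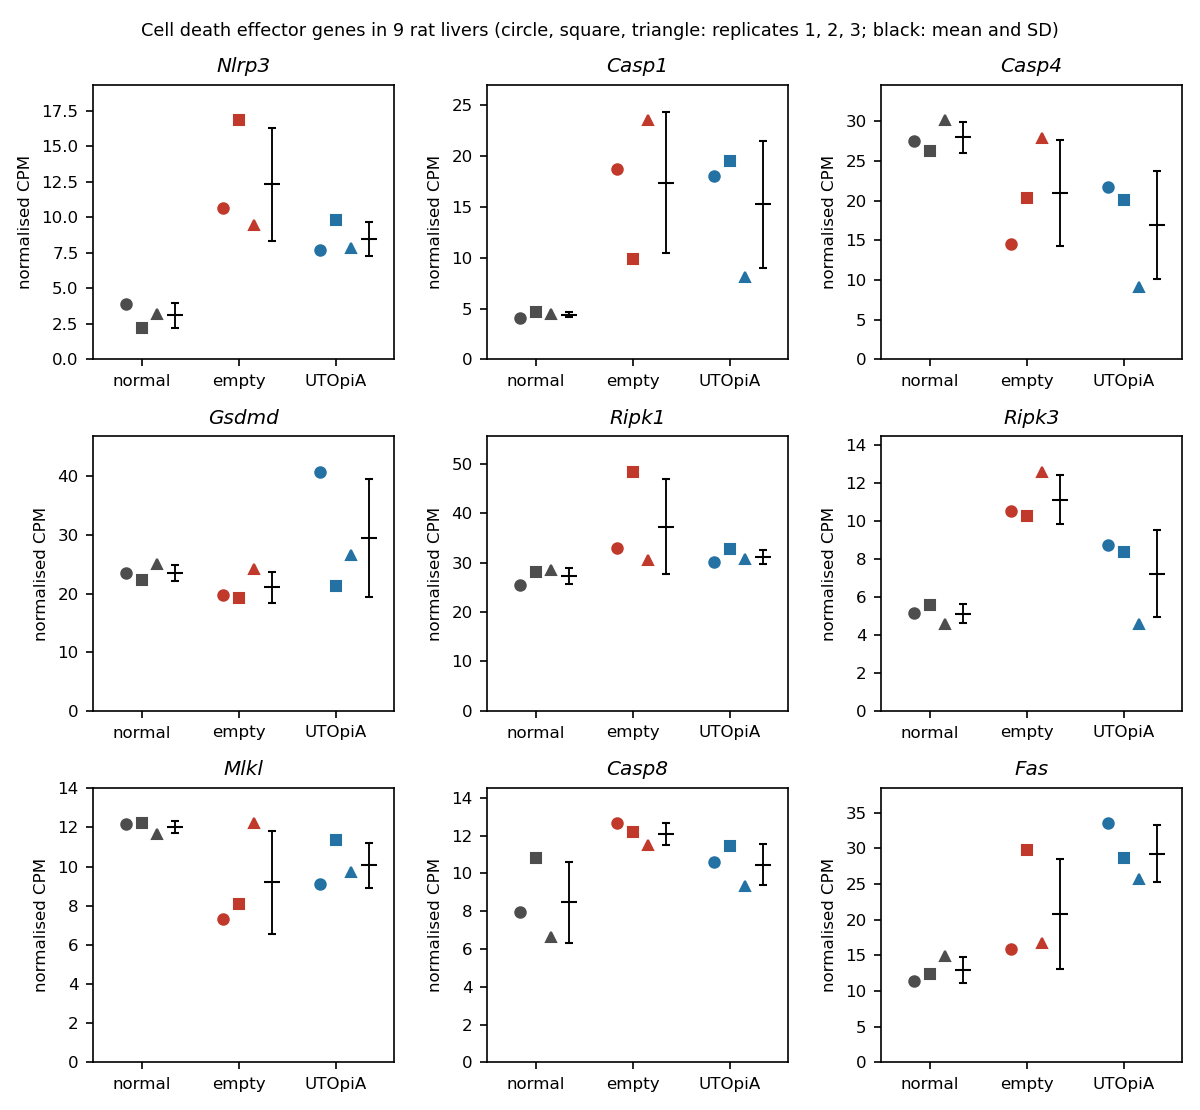
Normalised CPM of the 9 genes in each liver, one panel a gene, with the groups on the horizontal axis. Coloured points are single livers (circle, square and triangle for replicates 1, 2 and 3), and the black bar beside each group is the mean with SD (n = 3). Nlrp3 lay between 2.18 and 3.94 in normal livers and between 7.74 and 16.8 in ACLF livers, and in the third UTOpiA liver Casp1, Casp4, Ripk3 and Casp8 were at their lowest of the 6 ACLF livers.

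For the 3 genes that rose in the empty group, the stretch before the transcription start is shown so that their regulatory sequence can be read beside their levels. It comes from RefSeq on the rat build GRCr8, which differs from the build of the tables, and RefSeq windows of 300 bases (250 before and 50 after the start) were matched for 6 of the 9 genes. Windows for Casp4, Gsdmd and Casp8 were not analysed here. Capitals mark matches to the interferon-stimulated response element (ISRE) or the gamma-activated site (GAS, TTCNNNGAA), searched on both strands together with the NF-kB motif, and no match overlapped another. The Nlrp3 stretch is chr10:44827848-44828097 on the plus strand, the Casp1 stretch chr8:10872580-10872829 on the plus strand and the Ripk3 stretch chr15:33262026-33262275 on the minus strand. For Nlrp3 and Casp1 the gene's entry begins before this window, so each window belongs to 1 of several start sites.
Nlrp3: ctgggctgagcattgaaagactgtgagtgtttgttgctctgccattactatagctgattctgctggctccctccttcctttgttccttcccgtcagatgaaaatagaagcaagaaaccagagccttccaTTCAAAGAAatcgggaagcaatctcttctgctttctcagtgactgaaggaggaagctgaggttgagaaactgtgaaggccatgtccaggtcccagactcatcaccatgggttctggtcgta
Casp1: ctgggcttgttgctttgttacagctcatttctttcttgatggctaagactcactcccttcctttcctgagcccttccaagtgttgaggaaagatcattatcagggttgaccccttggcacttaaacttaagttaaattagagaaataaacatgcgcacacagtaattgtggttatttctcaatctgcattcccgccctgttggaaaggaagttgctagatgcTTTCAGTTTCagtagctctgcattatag
Ripk3: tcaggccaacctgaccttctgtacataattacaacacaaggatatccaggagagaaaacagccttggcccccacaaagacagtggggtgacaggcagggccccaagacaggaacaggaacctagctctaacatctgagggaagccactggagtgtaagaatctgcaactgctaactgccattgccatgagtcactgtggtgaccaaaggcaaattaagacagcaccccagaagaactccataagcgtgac
The Nlrp3 stretch held 1 GAS match, TTCAAAGAA, which starts 121 bases before the start site. The Casp1 stretch held 1 ISRE match on the minus strand, TTTCAGTTTC as read here, which starts 28 bases before the start site. The Ripk3 window held none of the 3 motifs, and neither did those of Ripk1 and Mlkl. In the Fas window an ISRE match, TTTCTCTTTC, began at base 38 after the start. Among 33469 RefSeq windows of the same length, 3.92% held the ISRE, 8.87% the GAS and 4.18% the NF-kB motif. A match describes letters, and binding was not measured.

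Casp4 and Gsdmd, the caspase that binds LPS inside the cell and the pore-forming protein it cuts, were not called in any comparison. Casp4 stood at 27.5, 26.3 and 30.1 normalised CPM in normal livers, at 14.6, 20.3 and 27.9 in the empty group and at 21.7, 20.1 and 9.18 in the UTOpiA group. All 3 UTOpiA livers lay below all normal livers, but the log2 fold change was -0.72 (SE 0.32) with an adjusted p of 0.107 in edgeR, and -0.42 without the third UTOpiA liver. In the empty group the groups overlapped and the log2 fold change was -0.42 (SE 0.32, adjusted p = 0.309, edgeR). On log2(TPM + 1) that difference changed sign, to 0.06, so no direction is given for Casp4.

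Gsdmd stood at 23.4, 22.3 and 25.0 normalised CPM in normal livers, at 19.7, 19.3 and 24.2 in the empty group and at 40.8, 21.3 and 26.6 in the UTOpiA group. The first UTOpiA liver held far more than any other, and the remaining 8 livers ran from 19.3 to 26.6. For Gsdmd the log2 fold change was -0.16 (SE 0.22, adjusted p = 0.570, edgeR) in the empty group, which became 0.33 on log2(TPM + 1), and 0.32 (SE 0.22, adjusted p = 0.272, edgeR) in the UTOpiA group, or 0.0122 without the first UTOpiA liver. Of the other gasdermins, Gsdme had 3 to 15 reads in any library and was not tested.

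Ripk1, the kinase that can lead to survival, apoptosis or necroptosis, stood at 25.5, 28.1 and 28.5 normalised CPM in normal livers, at 33.0, 48.4 and 30.5 in the empty group and at 30.1, 32.8 and 30.8 in the UTOpiA group. Every ACLF liver lay above every normal liver, by a small margin in all but the second liver of the empty group. Ripk1 had a log2 fold change of 0.45 (SE 0.18, adjusted p = 0.0593, edgeR) in the empty group and 0.19 (SE 0.18, adjusted p = 0.411, edgeR) in the UTOpiA group, and was not called. Without the second liver of the empty group the first of these values was 0.21.

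Mlkl, the substrate of RIPK3, stood at 12.2, 12.2 and 11.6 normalised CPM in normal livers, at 7.31, 8.10 and 12.2 in the empty group and at 9.11, 11.4 and 9.70 in the UTOpiA group. The first and second livers of the empty group were low, and the third was at the normal level. For Mlkl the log2 fold change was -0.38 (SE 0.21, adjusted p = 0.158, edgeR) in the empty group and -0.25 (SE 0.21, adjusted p = 0.361, edgeR) in the UTOpiA group. The first was -0.64 (adjusted p = 0.0208, edgeR) without the third liver of the empty group and -0.24 without the first, under a 2-fold change in each case. On log2(TPM + 1) both changed sign, to 0.09 and 0.05, so no direction is given for Mlkl either.

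Casp8, the protease shared by apoptosis and the brake on necroptosis, stood at 7.96, 10.8 and 6.64 normalised CPM in normal livers, at 12.7, 12.2 and 11.5 in the empty group and at 10.6, 11.5 and 9.33 in the UTOpiA group. The empty group lay above all normal livers, while the UTOpiA group overlapped them. The log2 fold change was 0.51 (SE 0.20, adjusted p = 0.0552, edgeR) in the empty group and 0.30 (SE 0.20, adjusted p = 0.248, edgeR) in the UTOpiA group. Without the second normal liver, the highest of its group, these were 0.72 (adjusted p = 0.0187, edgeR) and 0.52, still under a 2-fold change, and without the third normal liver 0.36 and 0.15. Casp8 was thus not called, although limma on log2(TPM + 0.1) called it, with a log2 fold change of 1.05 in the empty group.

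Fas had another pattern. It stood at 11.4, 12.4 and 14.9 normalised CPM in normal livers, at 15.9, 29.7 and 16.8 in the empty group and at 33.5, 28.6 and 25.7 in the UTOpiA group. Each UTOpiA liver held more than the first and the third livers of the empty group, while the second liver of the empty group was among the UTOpiA values. The rise in the UTOpiA group was called, with a log2 fold change of 1.18 (SE 0.25, adjusted p = 0.00548, edgeR) or 2.27-fold. In the empty group the log2 fold change was 0.68 (SE 0.25, adjusted p = 0.0439, edgeR), which passed the adjusted p but at 1.61-fold not the fold threshold. It was 0.33 (adjusted p = 0.145, edgeR) without the second liver of the empty group, and limma on log2(TPM + 1) called it at 1.06.

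Against normal livers, the UTOpiA group therefore showed 3 of 9 genes called higher (Nlrp3, Casp1 and Fas) and 0 lower, where 18.2% of all genes tested were called higher and 6.81% lower. Here the median over the 9 genes was 0.32 on the log2 scale against 0.05 over all genes. All UTOpiA livers lay above all normal livers for 4 of the 9 genes and below them for 2, Casp4 and Mlkl, where 30.8% and 26.1% of all genes tested did so. On TPM these counts were 5 and 0, against 5488 above and 1891 below among all 14089 genes tested. On that scale Gsdmd lay above, and Casp4 and Mlkl overlapped. Both comparisons used the same 3 normal livers, so they are not independent of each other. The calls of Nlrp3 and Casp1 in both comparisons, of Ripk3 in the empty group and of Fas in the UTOpiA group held under every alternative tried.

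Between the UTOpiA and the empty group, 0 of the 9 genes were called by edgeR and 0 by DESeq2. Over all 14089 genes edgeR also called 0 in either direction (0%), whereas DESeq2 called 53 higher and 71 lower. In edgeR 10.3% of all genes had an unadjusted p under 0.05, as did 1 of the 9 genes. That gene was Ripk3, with a log2 fold change of -0.62 (95% confidence interval -1.17 to -0.06, unadjusted p = 0.0324, adjusted p = 0.448, edgeR), and it was lower in all 3 UTOpiA livers than in any liver of the empty group. Without the third UTOpiA liver the difference was -0.38. Casp8 also did not overlap between these groups in normalised CPM, though it did in TPM, with a log2 fold change of -0.21 (interval -0.64 to 0.23), and these 2 of 9 compare with 5.97% of all genes that lay below in this way and 6.15% that lay above.

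For the other genes the intervals of the UTOpiA minus empty difference were wide enough to hold both no difference and a sizeable one. Nlrp3 had a log2 fold change of -0.54 (interval -1.15 to 0.07), or -0.25 without the second liver of the empty group, and Casp1 of -0.19 (interval -1.01 to 0.63), which became 0.11 without the third UTOpiA liver. Fas had 0.49 (interval -0.05 to 1.04), or 0.85 (adjusted p = 0.0774, edgeR) without the second liver of the empty group. Gsdmd had 0.49 (interval -0.01 to 0.99), or 0.17 without the first UTOpiA liver. Casp4 had -0.30 (interval -1.02 to 0.42), or -0.00329 without the third UTOpiA liver and -0.0349 without the third liver of the empty group. Ripk1 had -0.26 (interval -0.65 to 0.14), or -0.0206 without the second liver of the empty group. Mlkl had 0.13 (interval -0.34 to 0.60), whose sign changed on log2(TPM + 1) and, at -0.0110, without the first liver of the empty group.

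**Figure D2:**
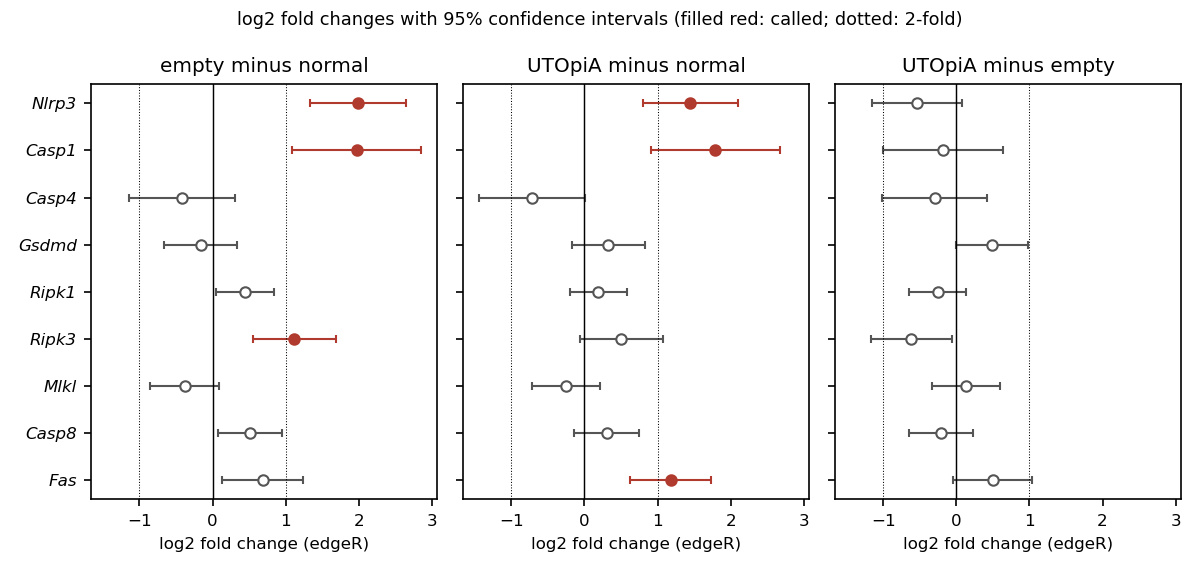
Log2 fold changes of the 9 genes from edgeR in the 3 comparisons, with 95% confidence intervals as bars. Filled red points are called genes, open points are not called, and the dotted lines mark a 2-fold change. Nlrp3 and Casp1 were called in both comparisons with normal livers, Ripk3 in the empty group (1.12), Fas in the UTOpiA group (1.18), and no gene between the ACLF groups, and on the TPM scale the signs of Casp4 and Gsdmd (empty minus normal) and of Mlkl (all 3 comparisons) are reversed.

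Single livers differed in their profile over the 9 genes. The third UTOpiA liver held the lowest of the 6 ACLF levels for 4 genes (Casp1, Casp4, Ripk3 and Casp8) and the highest for 0, and its median log2 change from the normal mean was 0.17. The third liver of the empty group held the highest level for 4 genes (Casp1, Casp4, Ripk3 and Mlkl) and the lowest for 0. The largest median log2 change, 0.82, was in the second liver of the empty group, where Nlrp3 and Ripk1 peaked but Casp1 was at 9.87 normalised CPM.

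Macrophage, neutrophil and T cell marker levels were mostly higher in both ACLF groups than in normal livers, on a TPM scale whose median gene also lay higher there (0.44 and 0.29 on log2(TPM + 1)), whereas calls are from edgeR on TMM counts. Ptprc, which encodes the pan-leukocyte antigen CD45, had 2.44 to 4.01 TPM in normal livers, 14.9 to 26.7 in the empty group and 9.48 to 26.0 in the UTOpiA group. The summed TPM of 9 macrophage and monocyte markers was 258 to 314, 982 to 1695 and 504 to 1682 in the same order, with 7 of 9 called higher in the empty group and 5 of 9 in the UTOpiA group, while Clec4f, a Kupffer cell marker, had log2 fold changes of -0.85 and -0.74 and was not called. That of 9 neutrophil markers was 2.25 to 5.58, 187 to 1109 and 175 to 507, with all 5 tested markers called higher in both groups. Of the defining neutrophil markers, Cxcr2 was at 0 in normal livers only, Ltf was at 0 in all 9 livers, and Mpo had at most 3 reads in every liver, as Elane and Camp had in normal and UTOpiA livers. Of the B and plasma cell markers, 0 of 3 tested were called in either group, with median log2 fold changes of 0.26 and 0.12. The third UTOpiA liver had the lowest Ptprc level and the lowest macrophage, neutrophil and T cell sums of the 6 ACLF livers. The second liver of the empty group had the lowest of its group in all 4 of these measures (14.9 TPM for Ptprc and sums of 982, 187 and 69.8). Casp1 and Pycard were at their lowest of the ACLF livers in these 2 livers, while Nlrp3 and Ripk1 were at their highest in the second liver of the empty group. The hepatocyte markers summed to 148901 to 161611 TPM in normal livers, 32165 to 58158 in the empty group and 37323 to 58358 in the UTOpiA group, with 5 and 3 of 10 called lower. Most of that sum in normal livers was Alb, at a mean of 119226 TPM, while Pck1 was called higher in both ACLF groups (log2 fold changes of 3.10 and 3.02), and Asgr1 and Serpina1 were not called. Of the cholangiocyte markers, 6 of 6 tested rose in both groups, as did 6 of 7 stellate cell and fibroblast markers (median log2 fold changes of 3.25 and 3.88) and 3 of 4 erythroid markers, the other of which was called lower in the empty group. The stellate cell and fibroblast markers summed to 105 to 116 TPM in normal livers, 855 to 1054 with the empty circuit and 449 to 1023 with UTOpiA. In bulk tissue, more cells of a type and more RNA per cell cannot be told apart, and the part of these cells in the levels of the 9 genes was not tested.

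The order of the genes by length-scaled level also shifted. In normal livers Casp4 was the highest with a mean of 32.7 TPM, followed by Gsdmd with 17.3 and Ripk1 with 8.66, and their ranges did not overlap. Fas (7.24), Casp8 (6.01) and Mlkl (5.44) followed, each overlapping its neighbour, then Casp1 (4.13) and Ripk3 (3.66), with Nlrp3 (1.07) clearly last. In the empty group Casp4 (35.7), Casp1 (23.6) and Gsdmd (22.4) led without being separable, and Nlrp3 (6.08) was level with Mlkl (6.07) at the bottom. In the UTOpiA group Gsdmd (27.1), Casp4 (26.2), Fas (20.9) and Casp1 (18.9) led, and each gene overlapped the next down to Nlrp3 (3.74).

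Ratios of 2 genes within a liver do not depend on library scaling. They are given as ranges, were not tested and were not set against other gene pairs. The TPM ratio of Casp4 to Casp1 was 7.01 to 8.51 in normal livers, 0.974 to 2.58 in the empty group and 1.29 to 1.5 in the UTOpiA group. The ratio of Gsdmd to Casp1 was 3.74 to 4.48, 0.808 to 1.54 and 0.855 to 2.57 in the same order. Both inflammatory ratios thus separated all ACLF livers from all normal livers. Casp1, called higher in both ACLF groups, is the denominator of both, so this separation is not independent of that rise. The ratio of Mlkl to Ripk3 was 1.39 to 1.60 in normal livers, 0.440 to 0.614 in the empty group and 0.661 to 1.34 in the UTOpiA group, so the UTOpiA livers lay between the other groups without overlap. The ratio of Ripk3 to Ripk1, the kinase pair of the necrosome, was 0.365 to 0.457 in normal livers and 0.479 to 0.934 in the empty group. UTOpiA livers overlapped both, from 0.337 to 0.654. The ratio of Casp8 to Fas was 0.561 to 1.10, 0.516 to 1.00 and 0.399 to 0.505, below all other livers in the UTOpiA group. That of Casp8 to Ripk3 was 1.43 to 1.92, 0.901 to 1.19 and 1.20 to 2.01, where UTOpiA livers overlapped normal livers.

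**Figure D3:**
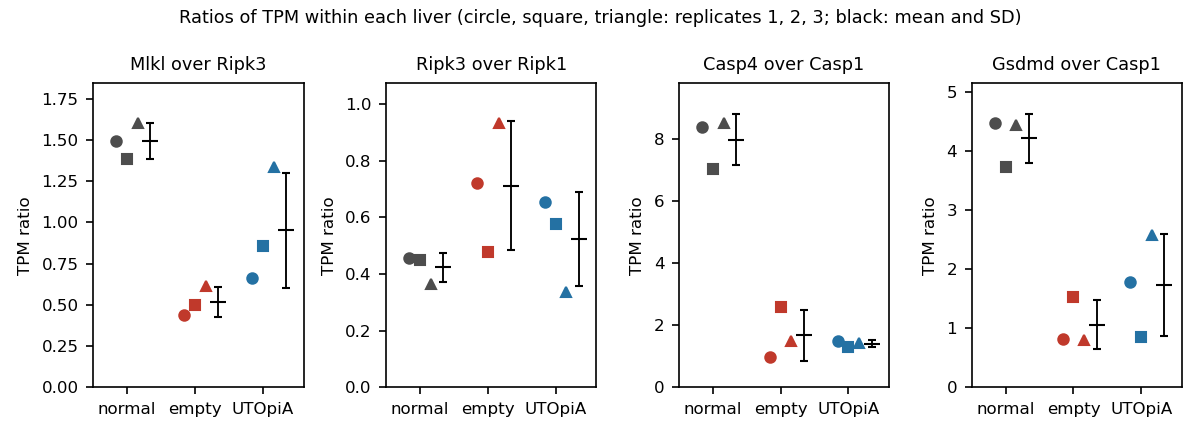
Ratio of the TPM of one gene to that of another in the same liver (vertical axis, no unit), by group, for 4 pairs. Points are single livers (circle, square and triangle for replicates 1, 2 and 3) and the black bar is the mean with SD (n = 3). The ratio of Mlkl to Ripk3 was at least 1.39 in normal livers, at most 0.614 in the empty group and 0.661 to 1.34 in the UTOpiA group.

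Casp1 and Casp4 are neighbours on chromosome 8, and so is Casp12, a caspase of the same inflammatory family. Casp12, chosen for its position, stood at 17.1, 14.5 and 15.6 normalised CPM in normal livers, at 14.3, 19.5 and 13.8 in the empty group and at 47.5, 26.6 and 12.2 in the UTOpiA group. Of the 9 livers, the first of the UTOpiA group was the highest and the third of that group the lowest. Of the 3 neighbours, Casp1 alone was called against normal livers, since Casp12 had a log2 fold change of 0.02 (adjusted p = 0.978, edgeR) in the empty group and 0.87 (adjusted p = 0.115, edgeR) in the UTOpiA group. The latter rested on single UTOpiA livers, since it was 0.30 without the first and 1.23 (adjusted p = 0.00722, edgeR), which passed, without the third.

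The partners of the 9 genes were followed through 76 symbols in 8 lists, of which 69 were found and 62 genes tested. In the empty group 21 of the 62 were called higher and 1 lower, with a median log2 fold change of 0.37, where 20.7% of all genes were called higher and 11.1% lower. In the UTOpiA group 16 were called higher and 0 lower, with a median of 0.60, where 18.2% of all genes were called higher and 6.81% lower. Between the ACLF groups edgeR called 0, with 15 at an unadjusted p under 0.05 (10.3% of all genes). DESeq2 called 1 of the partners higher and 1 lower there, where it called 53 higher and 71 lower over all genes. Inflammasome sensors and adaptors and the BCL2 family held most of the calls.

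Of 10 inflammasome sensors and adaptors tested, 7 were called higher and 1 lower in the empty group and 4 higher in the UTOpiA group. Pycard, the ASC adaptor that joins NLRP3 to caspase-1, stood at 1.92, 2.26 and 2.95 normalised CPM in normal livers, at 11.3, 4.61 and 13.4 in the empty group and at 11.3, 12.0 and 8.42 in the UTOpiA group. As for Casp1, the lowest ACLF values were in the second liver of the empty group and the third UTOpiA liver. Its log2 fold change was 2.03 (adjusted p = 0.00234, edgeR) in the empty group and 2.15 (adjusted p = 0.00257, edgeR) in the UTOpiA group. Nlrp1a, another sensor, had log2 fold changes of 1.78 and 1.42, both called, and Mefv, which encodes the sensor pyrin, went from 1 or 2 reads in normal livers to 65, 94 and 68 with the empty circuit and 30, 64 and 23 with UTOpiA, and was called in both. The 1 gene called lower was Nlrp12, a NOD-like receptor chosen after its values were seen, with a log2 fold change of -2.0 (adjusted p = 0.00377, edgeR) in the empty group and -0.76 (adjusted p = 0.152, edgeR) in the UTOpiA group, or -1.28 (adjusted p = 0.0180, edgeR) and called without the third UTOpiA liver.

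Of 4 genes tested among gasdermins, membrane rupture and inflammasome cytokines, 1 was called higher in each ACLF group. It was Il1b, the cytokine that caspase-1 matures, with a log2 fold change of 5.11 (adjusted p = 0.00211, edgeR) in the empty group, or 4.09 without its second liver, and of 2.95 (adjusted p = 0.0249, edgeR) in the UTOpiA group, where it no longer passed without the second UTOpiA liver or without any one normal liver, nor with no filter on low counts (adjusted p = 0.0721 in edgeR and 0.0615 in limma). Il18, its other cytokine substrate, had a log2 fold change of 0.97 (adjusted p = 0.00445, edgeR) in the empty group, just under the fold threshold, and was called at 1.08 with at least 10 counts in every library, at 1.39 to 1.49 in limma on TPM, and without the first normal liver (1.12) or the second liver of the empty group (1.06).

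Of 14 TNF receptor and RIPK1 checkpoint genes, 2 were called higher in each ACLF group and 0 lower. They were Birc3, a ubiquitin ligase that keeps RIPK1 in its survival complex, and Tnfaip3, which encodes the ubiquitin-editing protein A20. Birc3 stood at 7.87, 5.82 and 7.54 normalised CPM in normal livers, at 50, 163 and 49.9 in the empty group and at 31.7, 39.7 and 17 in the UTOpiA group. Its log2 fold change was 3.63 (adjusted p = 0.000994, edgeR) in the empty group, or 2.82 without the second liver, and 2.06 (adjusted p = 0.0139, edgeR) in the UTOpiA group, where it no longer passed without the second UTOpiA liver or the second normal liver. Tnfaip3 had 4.72 (adjusted p = 0.00277, edgeR) in the empty group, or 3.00 without the second liver, and 2.82 (adjusted p = 0.0267, edgeR) in the UTOpiA group, a call lost without any one normal liver or without the first or without the second UTOpiA liver, and with no filter on low counts (adjusted p = 0.0761, edgeR). The second liver of the empty group, in which Ripk1 and Nlrp3 peaked, was thus the highest for both.

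Of 5 necroptosis inputs, 2 were called higher with the empty circuit and 1 with UTOpiA. Zbp1, a nucleic acid sensor that binds RIPK3, had a log2 fold change of 1.48 (adjusted p = 0.0437, edgeR) in the empty group, a call lost when any one of 7 libraries was left out, under the replicate block (1.45, adjusted p = 0.0900), with no filter on low counts (adjusted p = 0.0579) and in unfiltered limma (0.78, under the fold threshold). It had 0.89 (adjusted p = 0.218, edgeR) in the UTOpiA group. Tlr4, the receptor for LPS, had 1.39 in both groups (adjusted p = 0.0192 and 0.0240, edgeR). Its call was lost without the second or without the third normal liver, without the first liver of the empty group in that group, and without the second UTOpiA liver in the other. In the UTOpiA group it was also lost in limma on log2(TPM + 1), where the log2 fold change was 0.996 with an adjusted p of 0.0519, or 0.0796 unfiltered.

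Of 5 death ligands, receptors and adaptors tested beside Fas, 0 were called in either group by edgeR, and 0 and 1 had an unadjusted p under 0.05. Fadd, the adaptor between Fas and caspase-8, had log2 fold changes of 0.03 (adjusted p = 0.888, edgeR) and 0.12 (adjusted p = 0.634, edgeR). Cflar, which encodes the caspase-8 inhibitor cFLIP, stood at 27.1, 17.6 and 18.6 normalised CPM in normal livers, at 26.7, 31.5 and 22.9 in the empty group and at 15.3, 17.3 and 22.1 in the UTOpiA group. It lay lower in every UTOpiA liver than in the empty group, with a log2 fold change of -0.57 (unadjusted p = 0.0249, adjusted p = 0.433, edgeR). Faslg, the ligand of Fas, had 0 to 3 reads per normal library and 4 to 11 per ACLF library and was not tested.

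Tnfsf10, which encodes the death ligand TRAIL and was chosen after its values were seen, stood at 26.5, 32.1 and 31.5 normalised CPM in normal livers, at 25.0, 22.5 and 29.2 in the empty group and at 67.1, 48.8 and 50.2 in the UTOpiA group. Like Fas, it was highest in the first UTOpiA liver, but unlike Fas all 3 UTOpiA livers lay above all 6 others. The log2 fold change between the UTOpiA and the empty group was 1.11 (SE 0.17, unadjusted p = 6.95e-05), with an adjusted p of 0.170 in edgeR. No gene had a lower adjusted p in that comparison, though other genes shared this value. DESeq2 called Tnfsf10 (1.09, adjusted p = 6.45e-05), and edgeR did so without the second UTOpiA liver (1.20, adjusted p = 0.0384). Against normal livers, limma on TPM called it in the UTOpiA group, at 1.12 to 1.18.

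Of 6 executioner and other caspases, 1 was called higher in each ACLF group. That was Casp2, an initiator caspase, with log2 fold changes of 1.17 (adjusted p = 0.000489, edgeR) and 1.18 (adjusted p = 0.000707, edgeR).

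Of 12 BCL2 family genes, 7 were called higher in each ACLF group and 0 lower, with median log2 fold changes of 1.99 and 1.64. The list holds both killers and protectors, and both were among the called genes. Bok, a pore-forming killer, went from 0.656 to 1.31 normalised CPM in normal livers to 34 to 77 in the empty group and 31.2 to 67.4 in the UTOpiA group. Bcl2l11, which encodes the BH3-only killer BIM, had log2 fold changes of 2.32 (adjusted p = 0.000552, edgeR) and 2.14 (adjusted p = 0.00115, edgeR). Bcl2a1, a protector abundant in neutrophils, had 3.37 (adjusted p = 0.000434, edgeR) and 2.53 (adjusted p = 0.00219, edgeR). Among 6 apoptosome and inhibitor of apoptosis genes, Apaf1, the apoptosome scaffold, was the 1 called, in the empty group (1.19, adjusted p = 0.00471, edgeR). In the UTOpiA group it was called in limma on log2(TPM + 0.1), at 1.11, and in edgeR without the third UTOpiA liver, at 1.10.

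**Figure D4:**
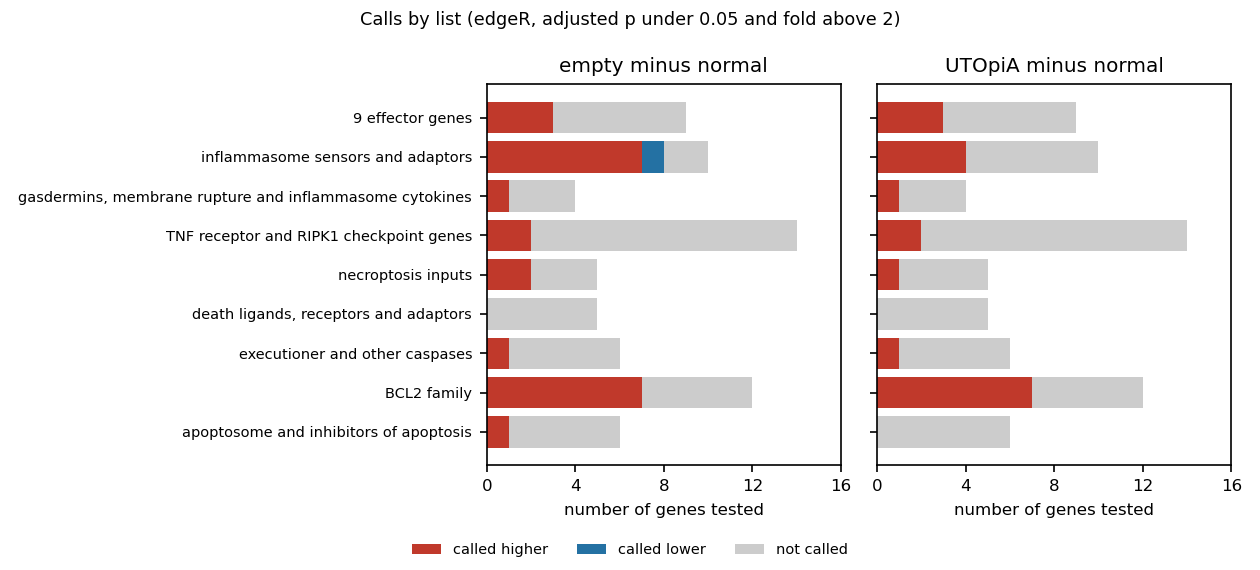
Number of genes tested in the 9 effector genes and in each of the 8 lists of partners (horizontal axis), split by call, for the empty group (left) and the UTOpiA group (right) against normal livers. Red is called higher, blue called lower and grey not called. The inflammasome list had 7 and 4 genes called higher and the BCL2 family 7 and 7, whereas the death ligand list had 0 in both.

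Genes whose profile over the 9 livers was closest to each member were found by the mean absolute difference of log2 CPM after each gene's normal mean was set to 0. The closest to Nlrp3 was Rps6ka3, with a mean difference of 0.16 over 9 livers, and the closest to Casp1 was Aldh3b1 with 0.15. Ripk3 was closest to Vezt (0.14) and Fas to Nectin2 (0.11). For Mlkl it was Gpn3 (0.07), for Ripk1 Tnpo1 (0.07), for Casp8 Akap10 (0.08), for Gsdmd Lims2 (0.11) and for Casp4 Pml (0.17), the farthest of the 9. Between members, Nlrp3 and Casp1 differed by 0.56.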

How the data were processed

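Liver RNA of 9 rats was analysed, with 3 libraries per group assigned by their labels. The authors deposited raw counts per gene, made from HISAT2 alignments with featureCounts and not normalised. They also deposited TPM, scaled by gene length and library. The labels name NEBNext kits, Trimmomatic and rn6, whereas the paper's methods name an MGIEasy kit, Cutadapt 1.9.1 and the mouse build GRCm38, so upstream settings are uncertain, and the strand setting is not given in the sources used here.

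Counts were fitted with edgeR 4.0.16 in R 4.3.3 (filterByExpr, TMM, all 9 libraries, one mean per group, robust quasi-likelihood test, two-sided). P-values were adjusted by Benjamini-Hochberg over 14089 genes, and a call needed an adjusted p under 0.05 and more than a 2-fold change. TPM were tested with limma 3.58.1 on log2(TPM + 1) or log2(TPM + 0.1), for genes whose mean TPM reached 1, and on log2(TPM + 1) without that filter. Further alternatives were DESeq2 1.42.0, normalisation by median of ratios, all genes without a count filter, a minimum of 10 counts per library, calls by adjusted p alone, the 6 libraries compared, a replicate block and each library left out. An exact permutation test on TPM has 0.1 as its smallest p for 3 livers against 3. P-values measure the spread between these livers. The fits were also run on simulated counts with equal numbers of genes raised and lowered. That setting lacks the shift of scale seen in these livers, and no result given here rests on it. The 9 genes, the lists and the rule for naming genes (all 9 members, the partners nearest to them and at most 3 called genes per list by adjusted p) were chosen with earlier results of these data known. Naip5, Naip6, Ticam1, Tnfrsf10b, Mcl1, Bbc3 and Hrk were not analysed here. The fold changes of the partner genes under the alternatives were added after the values were seen. Some genes that entered the fits and the list counts, and a detail of the organoids, are not reported here.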

Additional observations from a re-analysis of the deposited data

How the results depend on the processing

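The counts of effector genes called were 3 higher and 0 lower against normal livers in both ACLF groups, and 0 between them, under each alternative, with exceptions only in the empty group. There Fas was added, for 4 higher, with no fold threshold and in limma on log2(TPM + 1) with and without a filter, and limma on log2(TPM + 0.1) called 5 higher, adding Casp8 (1.05) and Fas (1.14). Correlations of same-numbered livers of different groups ran from -0.183 to 0.0638, and those of other pairs between groups from -0.186 to 0.288. Whether the numbers stand for a shared batch or day was not tested. The replicate block left 3, 3 and 0 effector genes and 20, 15 and 0 partner genes called higher. Partner genes called lower in the empty group rose from 1 to 7 with no fold threshold and were 1 to 4 with a library left out. In the UTOpiA group partner genes called higher were 25 with no fold threshold and 10 to 19 with a library left out, and those called lower were 2 in DESeq2, 2 with the 6 libraries compared, 3 with no fold threshold and 0 to 2 with a library left out. Between the ACLF groups partner genes called were 1 higher and 1 lower in DESeq2, and 0 to 1 each way with a library left out. Over all genes, those called higher in the empty group fell from 2916 to 1644 with at least 10 counts in every library, and those called lower went from 1560 to 693, 753 and 688 in limma (log2(TPM + 1), log2(TPM + 0.1) and no filter) and to 3036 with no fold threshold. For the UTOpiA group these were 1384 against 2563, then 487, 527, 471 and 2285 against 959. Between the ACLF groups all genes called were 53 higher and 71 lower in DESeq2 and 3 higher in unfiltered limma, with 0 to 32 higher and 0 to 22 lower when a library was left out. Signs reversed on the TPM scale, in limma with log2(TPM + 1), log2(TPM + 0.1) and no filter. For the empty group minus normal these were Casp4 (0.0558, 0.0554 and 0.0558), Gsdmd (0.33, 0.35 and 0.33), Mlkl (0.0919, 0.0996 and 0.0919) and Tnfsf10 (0.26, 0.28 and 0.26). For the UTOpiA group minus normal they were Mlkl (0.0505, 0.0536 and 0.0505) and Cflar (0.11, 0.11 and 0.11), and for UTOpiA minus empty Mlkl (-0.0414, -0.0460 and -0.0414). With a library left out the sign also changed for Casp12 (-0.16 to 0.10) and Fadd (-0.0841 to 0.12) in the empty group, Cflar (-0.38 to 0.00565) in the UTOpiA group, and Casp1 (-0.46 to 0.11), Mlkl (-0.0110 to 0.39) and Pycard (-0.22 to 0.41) between the ACLF groups. On log2(TPM + 1) the median over all genes was 0.44 and 0.29 in the empty and UTOpiA groups against normal, and -0.17 between the ACLF groups, against 0.04, 0.05 and 0.00 with TMM, and the cause of the changes was not tested. Depth limits Faslg and Gsdme, at 15 reads or fewer in every library.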
